A study of Macaca mulatta with 20 samples.

Results

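Chemokines are small secreted proteins that direct the movement of leukocytes through G protein-coupled receptors on those cells. They are grouped by the spacing of their first cysteines into the CC, CXC, CX3C and XC families, and most receptors bind several ligands of one family. In the corpus luteum, the progesterone-secreting gland left in the ovary after each ovulation, they are known mainly for the entry of leukocytes that accompanies luteal regression. The genes described here are those whose symbol in the array annotation is a numbered chemokine ligand or receptor symbol (CCL, CXCL, CX3CL, XCL, CCR, CXCR, CX3CR or XCR). The rule found 45 genes, 32 ligands and 13 receptors, among 14132 genes measured by a probe set with a single symbol. Where a gene had more than 1 probe set, which 14 of the 45 did, the brightest on average over all arrays stood for it.

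The study collected 20 corpora lutea from female rhesus macaques in natural menstrual cycles, with no hormone treatment, and hybridised total RNA of each to 1 Affymetrix array. The only factor was the luteal stage, with 4 corpora lutea per stage, described as biological replicates. Days were counted from the midcycle luteinising hormone surge, dated from daily serum estradiol: early (days 3 to 5), mid (7 to 8), mid-late (10 to 12), late (14 to 16) and very-late (18 to 19). The series design describes these as luteinisation, peak function, the time before regression, functional regression and, at menses, structural regression, with the early stage as the baseline. The ages of the animals are not given in the sources used here, and the tissue was the whole gland, so all its cell types entered each array. In such bulk RNA, more cells of a type and more RNA per cell cannot be told apart.

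Values are log2 signals, so a difference of 1 is a 2-fold difference. The array's 683 probe sets for viral genomes gave the background: 95% of them averaged below 4.29. A gene is called near background where its mean was below 4.29 at all 5 stages. Each stage comparison was tested with limma on all 52707 probe sets, with Benjamini-Hochberg adjustment over all of them, and a gene rose or fell where its adjusted p was under 0.05. Differences are given with their standard error (SE) and stage means with their standard deviation (SD, n = 4). The number of arrays limits the precision.

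Some arrays stood apart from the rest of their stage. Very-late replicate 1 had a GAPDH 3′ minus 5′ signal of 2.70 (log2), against 0.83 to 1.78 on the other 19 arrays, a sign of RNA quality. Of the correlations of an array with the rest of its stage, that of very-late replicate 2 was lowest, 0.973, and all others reached at least 0.986. A group of 7 arrays, namely all mid arrays plus 1 each from early, mid-late and very-late, read 7.02 to 8.93 on the mean of 6 mitochondrial probe sets, and the other 13 read 11.5 to 12.5. The main comparisons of early, late and very-late are also given without some of these arrays. No mid result can be, so the mid stage and the low mitochondrial signal cannot be told apart. The labelled tissue was checked by 4 measured luteal steroidogenic markers (STAR, HSD3B2, CYP19A1 and INHA), whose stage mean ran from 11.5 to 12.2 until late and was 7.44 ± 0.89 at very-late.

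Of the 45 chemokine genes, 23 were above background at 1 or more stages, 17 ligands and 6 receptors, and 22 were near background throughout. The test for any difference among the 5 stages was passed by 15 of the 45 (33.3%), against 21.5% of all probe sets tested. This and the other background shares are over all probe sets, including those with no symbol or near background. Among the 23499 probe sets above background at 1 or more stages, 42.9% passed, against 14 of the 23 chemokine genes. A range of stage means of at least 2-fold went with that call in 8 of the 45, against a background of 8.06%. The highest stage mean lay at the very-late stage for 18 of the 23 genes above background, at the early stage for 3 and at the late stage for 2. Their lowest mean lay at the mid stage for 11. The choice of the 23 favours genes with 1 high stage: CXCL9 entered through very-late alone. The shares of all probe sets with these extremes are not given here, so the counts are descriptive only.

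**Figure D1:**
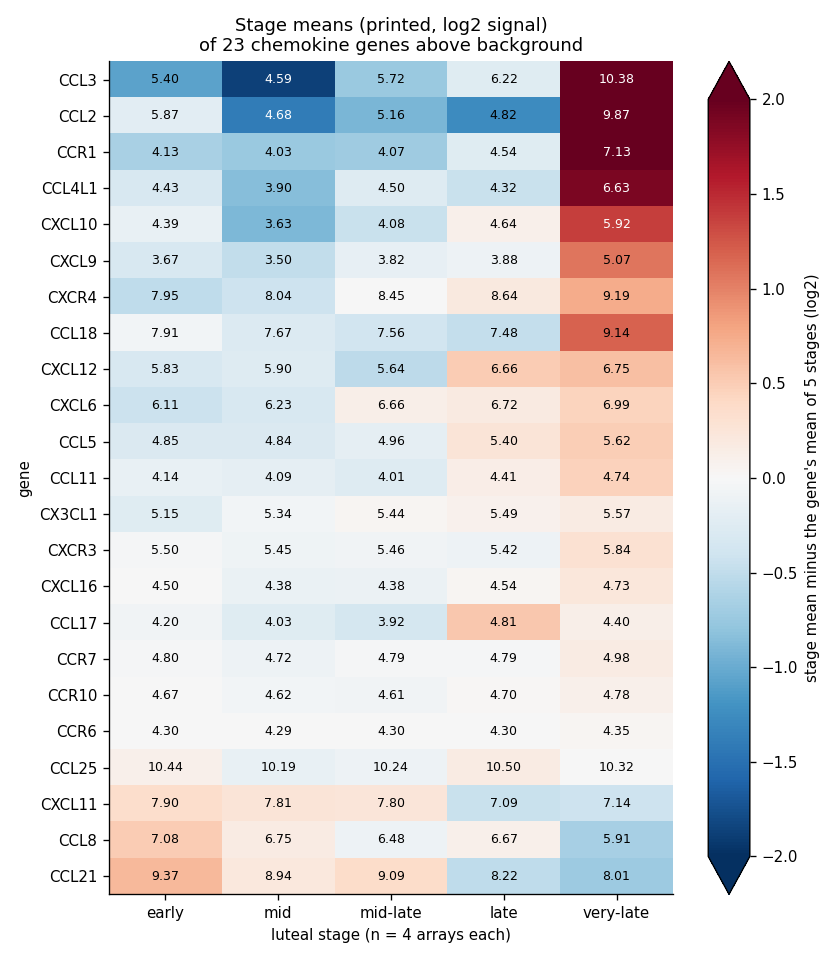
Stage means (printed numbers, log2 signal, n = 4 arrays per stage) of the 23 chemokine genes above background, ordered by their change from early to very-late. Colour is the stage mean minus the gene's mean of the 5 stages (log2), saturated at 2 in either direction: CCL3, CCL2, CCR1 and CCL4L1 were highest in the very-late column, and CCL21, CCL8 and CXCL11 were lower there than in the early column.

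Up to the mid-late stage no chemokine gene passed a comparison between stages. None of 45 did from early to mid (background 0.362%), and 2 had an unadjusted limma p under 0.05, both lower. None of 45 did from early to mid-late (background 3.73%), with 5 at an unadjusted p under 0.05. From mid to mid-late (background 0.0114%) and from mid-late to late (background 0.0114%) none passed either, with 4 and 6 at an unadjusted p under 0.05. By the late stage, 2 genes had risen against early (CXCL6 and CXCL13, background 3.61%) and 2 had fallen (CCL21 and CXCL11, background 3.97%). This count of 4 was 1 without early replicate 2 or without late replicate 2, and 2 without early replicate 3 or without late replicate 4.

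Most calls came with the very-late stage. Against early, 13 of 45 rose (background 9.45%) and 3 fell (background 9.21%), and 8 of the 16 changed by at least 2-fold. Against late, 7 rose (background 6.75%) and 1 fell (background 7.03%), 5 of these 8 by at least 2-fold. These comparisons share the very-late arrays and are not independent of each other. Among the probe sets above background at 1 or more stages, 36.2% were called in either direction from early and 27.4% from late. Of the 23 chemokine genes above background, 15 and 7 were called. The median change over the 45 genes was 0.13 from early and 0.13 from late, where the median over all probe sets was 0.016 and 0.017. All 4 very-late arrays lay above all 16 other arrays in 5 genes (CCL2, CCL3, CCL4L1, CCR1 and CXCL16; background 3.58%) and below them in 1 (CCL8; background 3.37%). Without regard to the test, the very-late arrays did not overlap the early ones in 8 genes that were higher (background 8.97%) and 3 that were lower (8.87%), nor the late ones in 8 higher (7.43%) and 1 lower (7.74%). Among the 13 genes that rose against early, very-late replicate 2 was the highest array of its stage in 9 and replicate 3 in 4. With very-late replicates 1 and 2 both left out, 13 genes passed against early, 12 of them among the 16, and 8 against late, 7 of them among the 8.

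**Figure D2:**
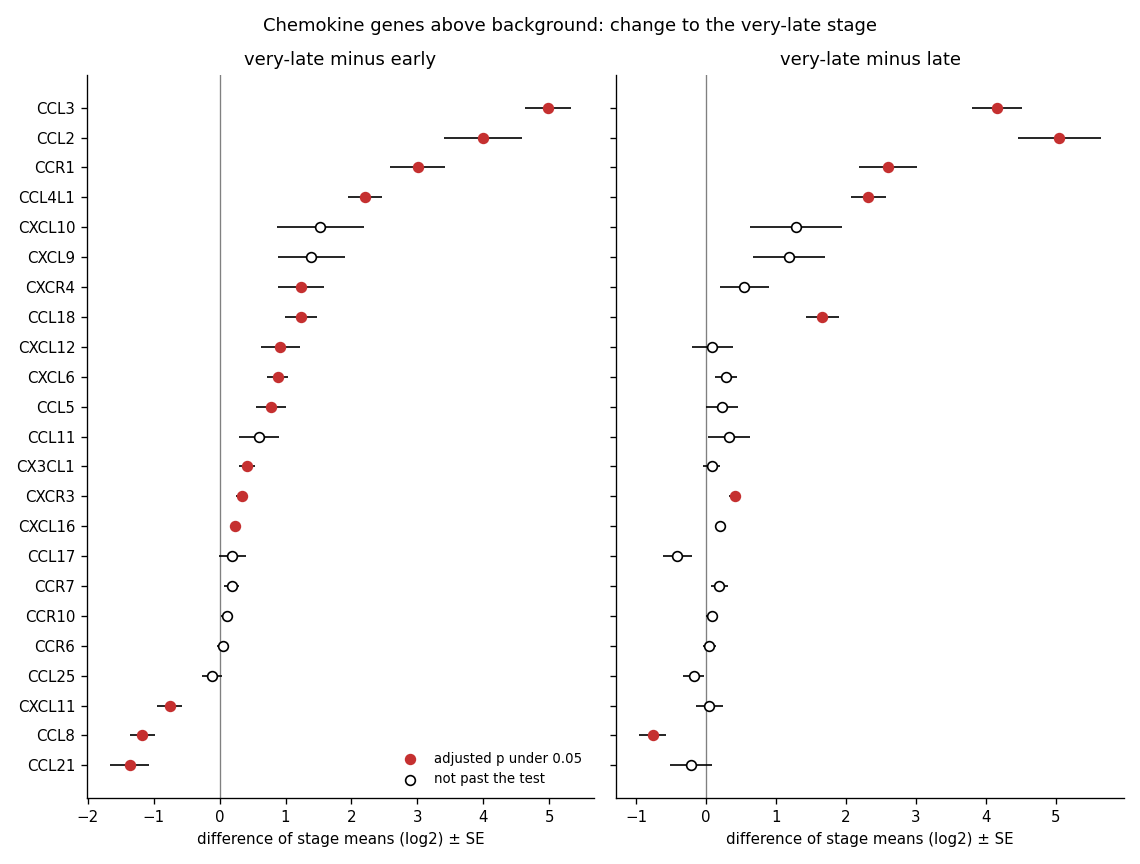
Difference of stage means (log2, ± SE) from early (left) and from late (right) to the very-late stage, for the 23 chemokine genes above background. Filled red points have an adjusted p under 0.05 by limma over all probe sets; CCL3, CCL2, CCR1 and CCL4L1 changed by 2.21 to 4.98 against early, and CXCL10 and CXCL9 had large differences with wide errors that did not pass.

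Among the CC ligands, inflammatory ligands that attract monocytes and T cells gave the largest increases. CCL2 (gene 574138), which attracts monocytes through CCR2, read 4.87, 5.58, 5.41 and 7.63 on the early arrays. Its values were 5.55, 4.31, 4.50 and 4.38 at mid, 4.05, 4.96, 5.92 and 5.71 at mid-late, and 4.20, 5.00, 5.42 and 4.65 at late. At the very-late stage they were 9.55, 11.60, 8.98 and 9.33. The lowest very-late array lay above the highest of the other 16, early replicate 4, and the other stages overlapped. The means were 5.87 ± 1.21 at early, 4.82 ± 0.52 at late and 9.87 ± 1.18 at very-late. CCL2 rose 15.9-fold from early (3.99 ± 0.60 SE, adjusted p = 8.1e-05) and 33.1-fold from late (5.05 ± 0.60 SE, adjusted p = 1.06e-05). Without early replicate 4 the rise from early was 4.58 (log2), and without very-late replicates 1 and 2 it was 3.28, both past the test.

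CCL3 (gene 619514), a macrophage inflammatory protein that binds CCR1, had the largest change from early of the 45 genes. It read 4.74, 4.90, 6.19 and 5.76 at early and 4.71, 4.38, 4.72 and 4.54 at mid. The mid-late arrays gave 4.54, 5.78, 6.28 and 6.29, and the late arrays 6.19, 6.26, 5.98 and 6.44. At very-late it read 10.11, 10.90, 10.63 and 9.87, far above the other 4 stages, which overlapped in part. The rise was 31.6-fold from early (4.98 ± 0.35 SE, adjusted p = 1.8e-08) and 17.9-fold from late (4.16 ± 0.35 SE, adjusted p = 2.44e-07). All 4 probe sets of CCL3 rose in both comparisons, by 0.96 to 4.98 from early and by 0.88 to 4.16 from late.

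CCL4L1 (gene 574217), a copy of the macrophage inflammatory protein gene CCL4, rose at very-late from a level close to background. Its arrays gave 4.36, 4.17, 4.86 and 4.31 at early, 3.73, 3.92, 4.09 and 3.86 at mid, and 4.19, 4.32, 4.87 and 4.60 at mid-late. They gave 4.40, 4.06, 4.45 and 4.37 at late and 5.81, 7.54, 6.70 and 6.49 at very-late, where no array overlapped another stage. CCL4L1 rose 4.62-fold from early (2.21 ± 0.25 SE, adjusted p = 4.68e-06) and 4.98-fold from late (2.32 ± 0.25 SE, adjusted p = 4.64e-06). The other probe set of CCL4L1 changed by 0.15 and 0.08 in these comparisons and did not pass. CCL3 and CCL4 have near-identical copies in primate genomes, so their probe sets may read several copies, and the gene named is uncertain to that extent.

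CCL5, a ligand of CCR1 and CCR3 made by T cells among others, rose less. Its arrays read 4.69 to 5.10 at early, 4.58 to 4.98 at mid and 4.83 to 5.10 at mid-late. The late arrays gave 4.76, 5.37, 5.71 and 5.74 and the very-late arrays 5.08, 5.89, 6.31 and 5.22, so the latter overlapped both early and late. CCL5 rose 1.71-fold from early to very-late (0.78 ± 0.23 SE, adjusted p = 0.0235) on both of its probe sets. The call was lost without early replicate 1, 2 or 4 or without very-late replicate 2 or 3, with adjusted p from 0.0513 to 0.0894.

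CCL18 (gene 574181), a product of macrophages and dendritic cells that attracts lymphocytes, was well above background at all stages. It read 8.27, 7.93, 7.49 and 7.93 at early, 7.69, 7.67, 7.67 and 7.67 at mid, 7.77, 7.54, 7.61 and 7.33 at mid-late, and 7.55, 7.76, 7.28 and 7.33 at late. At very-late the values were 9.59, 9.73, 8.23 and 9.01. Replicate 3 of that stage overlapped the early arrays, and all 4 lay above the late arrays. The rise was 2.35-fold from early (1.24 ± 0.24 SE, adjusted p = 9.71e-04) and 3.16-fold from late (1.66 ± 0.24 SE, adjusted p = 8.73e-05). The second probe set of CCL18 rose more, from means of 6.19 at early and 4.97 at late to 8.56 at very-late.

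CCL8 and CCL21 moved the other way. CCL8 (gene 574179), a monocyte chemoattractant related to CCL2, read 7.48, 7.02, 6.89 and 6.93 at early and 7.11, 7.03, 6.33 and 6.50 at mid. Its later arrays gave 6.26, 6.13, 6.80 and 6.73 at mid-late, 6.30, 6.75, 6.73 and 6.90 at late, and 5.88, 5.79, 6.11 and 5.85 at very-late. The very-late arrays were the 4 lowest of the 20. CCL8 fell by 1.17 ± 0.19 SE (log2) from early (adjusted p = 2.1e-04) and by 0.76 ± 0.19 SE from late (adjusted p = 0.0107). Its probe sets went apart, however: of 3, the brightest fell from late to very-late, 1 rose by 0.87, and the mean of the 3 changed by 0.18 with an adjusted p of 0.449. Averaged in the same way, the change from early was -0.23 (adjusted p = 0.267), so the fall of CCL8 is that of 1 probe set. Without very-late replicates 1 and 2, its fall from late was 0.69 in size with an adjusted p of 0.101.

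CCL21 (gene 574183), which lymphatic endothelium makes to guide cells bearing CCR7, had fallen by the late stage. The arrays read 9.69, 9.91, 9.02 and 8.86 at early, 9.03, 8.86, 8.80 and 9.07 at mid, and 8.54, 9.04, 8.70 and 10.06 at mid-late. They read 7.96, 8.22, 8.22 and 8.50 at late and 8.21, 7.48, 8.60 and 7.73 at very-late, so each of these stages lay wholly below early. CCL21 fell by 1.14 ± 0.30 SE from early to late (adjusted p = 0.024) and by 1.37 ± 0.30 SE from early to very-late (adjusted p = 0.00278). The call at the late stage was lost without early replicate 1 or 2, or late replicate 1, 2 or 3, with adjusted p from 0.0558 to 0.0826. The other probe set of CCL21 was near background, with stage means of 3.99 to 4.13, and did not change.

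**Figure D3:**
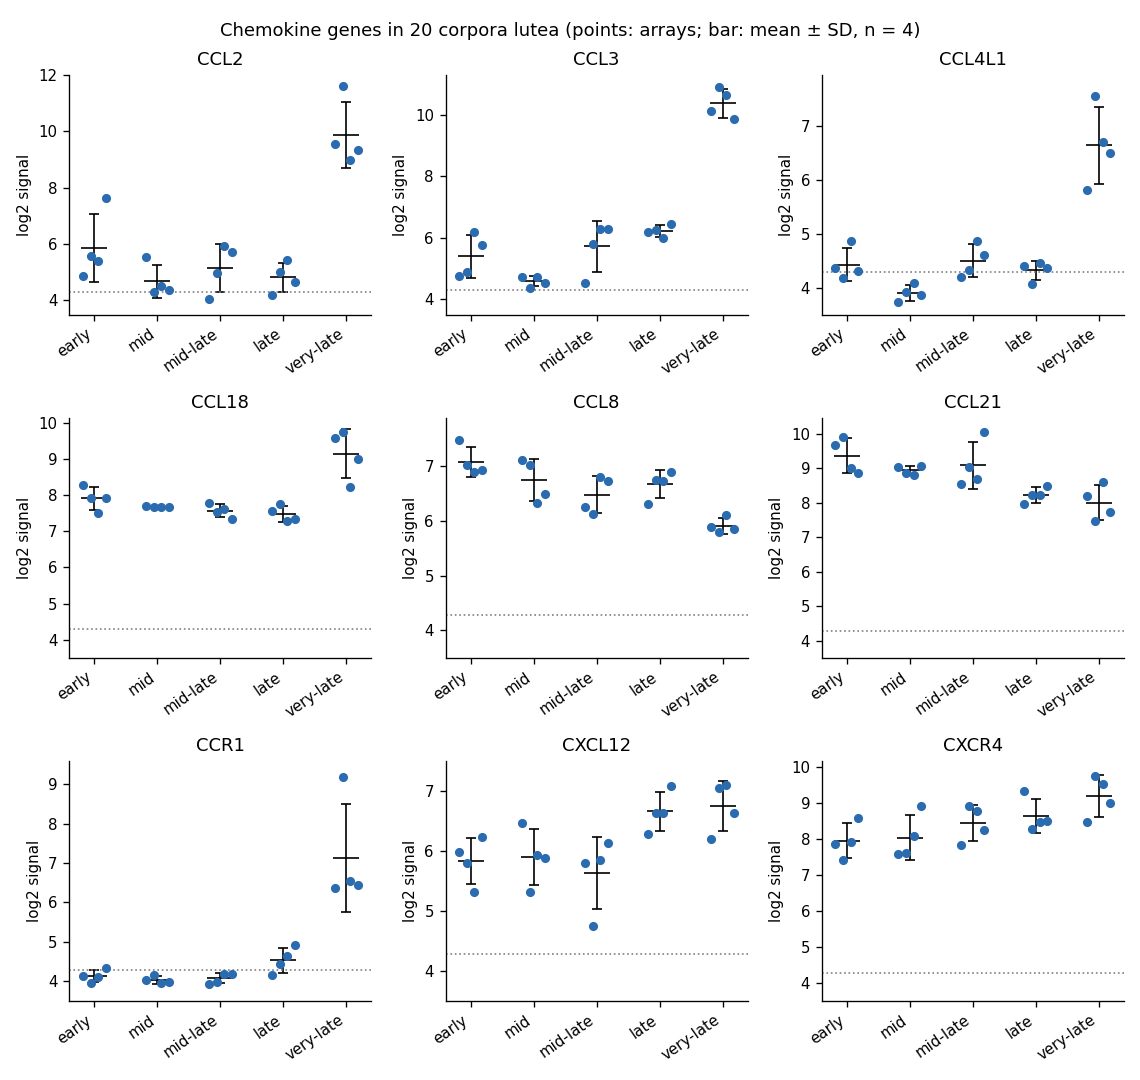
Log2 signal of 9 chemokine genes on each of the 20 arrays by luteal stage (points, in replicate order), with the stage mean ± SD (n = 4) and the background of 4.29 as a dotted line; vertical scales differ between panels and do not start at 0. The 4 very-late arrays of CCL2, CCL3, CCL4L1 and CCR1 lay above all others, those of CCL8 below all others, and those of CXCL12 and CXCR4 overlapped the early arrays.

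The other CC ligands above background were CCL17, CCL25 and CCL11. CCL17, a ligand of CCR4 on T helper cells, differed over the stages (adjusted p = 0.0231), with late arrays of 3.92, 4.77, 5.29 and 5.26 against 3.84 to 4.04 at mid-late. None of its 7 stage comparisons passed the test, and without late replicate 2, 3 or 4 the adjusted p over the stages was 0.052 to 0.081. CCL25, a ligand of CCR9 best known from thymus and gut, read 9.90 to 10.78 on all arrays with no change (adjusted p = 0.493). Of its 4 probe sets, 1 fell by 1.13 from early to very-late. CCL11, an eosinophil chemoattractant, did not pass (adjusted p = 0.348), and its difference from early to very-late, 0.60, had a 95% interval of -0.04 to 1.24.

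Among the CC receptors, CCR1 (gene 574188), the receptor of CCL3 and CCL5 on monocytes and neutrophils, rose from background. Its arrays read 4.13, 3.95, 4.12 and 4.33 at early, 4.02, 4.17, 3.96 and 3.98 at mid, and 3.94, 3.99, 4.18 and 4.18 at mid-late. The late arrays gave 4.17, 4.43, 4.63 and 4.92, and the very-late arrays 6.36, 9.18, 6.54 and 6.45. All very-late arrays lay above the rest, and replicate 2 was the highest of them. CCR1 rose 8.02-fold from early (3.00 ± 0.41 SE, adjusted p = 3.63e-05) and 6.05-fold from late (2.60 ± 0.41 SE, adjusted p = 2.47e-04). Without very-late replicate 2 the rises were 2.32 (adjusted p = 2.28e-09) and 1.91 (adjusted p = 2.99e-08).

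CCR2, the receptor of CCL2 and CCL8, had stage means below background throughout. Its very-late arrays read 3.60, 4.65, 3.56 and 4.00 against 3.37 to 3.47 at early, and the difference of 0.54 ± 0.16 SE passed (adjusted p = 0.0207), but only replicate 2 was above 4.29. CCR7, the receptor of CCL19 and CCL21, read 4.53 to 5.26 and did not pass in any comparison, with a 95% interval of -0.06 to 0.43 for its difference from early to very-late. CCR10, a receptor on skin-homing lymphocytes, had stage means of 4.61 to 4.78 and was above background on all 20 arrays. CCR6, the receptor of CCL20, was at the limit of background, with stage means of 4.29 to 4.35 and 12 of 20 arrays above it. The remaining CC receptors, CCR3, CCR4 and CCR8, were near background.

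Among the CXC members, CXCL12 and its receptor CXCR4, which retain and guide stem cells and leukocytes in many tissues, were above background at every stage. CXCL12 (gene 574334) read 5.98, 5.80, 5.32 and 6.23 at early, 6.47, 5.32, 5.93 and 5.88 at mid, and 5.80, 4.75, 5.85 and 6.14 at mid-late. It read 6.29, 6.64, 6.64 and 7.08 at late and 6.21, 7.06, 7.10 and 6.64 at very-late. The late arrays lay above the early ones, and very-late replicate 1 overlapped them. From early to very-late CXCL12 rose 1.89-fold (0.92 ± 0.30 SE, adjusted p = 0.0362). The rise was called on 2 of its 3 probe sets and was lost without early replicate 2 or 3 or very-late replicate 2, 3 or 4 (adjusted p 0.0531 to 0.125).

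CXCR4 (gene 707329) read 7.87, 7.41, 7.92 and 8.59 at early and 7.57, 7.60, 8.07 and 8.92 at mid. Its values were 7.83, 8.92, 8.77 and 8.26 at mid-late, 9.33, 8.29, 8.46 and 8.49 at late, and 8.47, 9.76, 9.54 and 8.99 at very-late. The stage means were 7.95, 8.04, 8.45, 8.64 and 9.19 in stage order, with overlap between every pair of neighbouring stages. The test over all stages did not pass (adjusted p = 0.0683). The rise from early to very-late did, at 2.36-fold (1.24 ± 0.35 SE, adjusted p = 0.0168), but not without early replicate 2 or very-late replicate 2 or 3 (adjusted p 0.0513 to 0.0634).

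CXCL6, a granulocyte attractant, rose at both regressing stages. It read 5.68 to 6.30 at early, 6.05 to 6.43 at mid, 6.49 to 6.80 at mid-late, 6.60 to 6.94 at late and 6.58 to 7.31 at very-late, so the last 3 stages lay wholly above early. The difference from early was 0.61 ± 0.16 SE at late (adjusted p = 0.0236) and 0.88 ± 0.16 SE at very-late (adjusted p = 4.84e-04). Both of its probe sets rose by the very-late stage, the other by 1.40. The call at late was lost without early replicate 2 or late replicate 4. CXCL8, the best-known neutrophil attractant and its neighbour in the genome, was near background on all 20 arrays, from 3.45 to 4.12.

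CXCL9, CXCL10 and CXCL11, interferon-induced ligands of CXCR3 on activated T cells, differed in their values. CXCL10 read 3.53, 3.76, 6.28 and 3.98 at early, 3.63, 4.44, 5.61 and 4.86 at late, and 6.69, 7.27, 5.86 and 3.86 at very-late. Single arrays were high at early and mid-late, and very-late replicate 4 was at background. The difference of 1.53 ± 0.65 SE from early to very-late did not pass (adjusted p = 0.125; 95% interval 0.16 to 2.90). CXCL9 was at 4.57, 7.58, 4.40 and 3.71 on the very-late arrays and at most 4.25 on all others, and its difference from early of 1.39 ± 0.51 SE did not pass (adjusted p = 0.0703).

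CXCL11 went down on its brightest probe set, from 7.61 to 8.15 at early to 6.71 to 7.53 at late and 6.55 to 7.52 at very-late. It fell by 0.80 ± 0.19 SE by late (adjusted p = 0.0144) and by 0.76 ± 0.19 SE by very-late (adjusted p = 0.00822). The second probe set had a very-late minus early difference of 0.48 and did not pass, and the mean of both gave adjusted p of 0.156 and 0.634 in these comparisons. The call at late was also lost without early replicate 3 or late replicate 2. CXCR3 itself read 5.38 to 5.74 at early, 5.34 to 5.52 at late and 5.65 to 5.94 at very-late. CXCR3 rose by 0.34 ± 0.09 SE from early (adjusted p = 0.00995) and by 0.41 ± 0.09 SE from late (adjusted p = 0.00299), and the call from early was lost without very-late replicates 1 and 2 (adjusted p = 0.0876).

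Transmembrane chemokines, which are tethered to the cell surface and can be shed, showed small rises. CX3CL1, the ligand of CX3CR1, read 5.08 to 5.28 at early and 5.33 to 5.83 at very-late, a rise of 0.42 ± 0.12 SE (adjusted p = 0.0194). It was lost without early replicate 3 or very-late replicate 1 or 3. CXCL16, the ligand of CXCR6, read 4.42 to 4.53 at early and 4.63 to 4.95 at very-late, a rise of 0.23 ± 0.07 SE (adjusted p = 0.0344). That call was lost in 12 of 18 alternatives. The receptors CX3CR1 and CXCR6 were near background throughout.

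Averaging the probe sets of a gene moved several changes by over 1.5-fold without ending their calls. From early to very-late CCL3 then rose by 2.89 and CCL4L1 by 1.18, and CCL21 fell by 0.65; from late to very-late CCL18 rose by 2.62, CCL3 by 2.61 and CCL4L1 by 1.20.

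**Figure D4:**
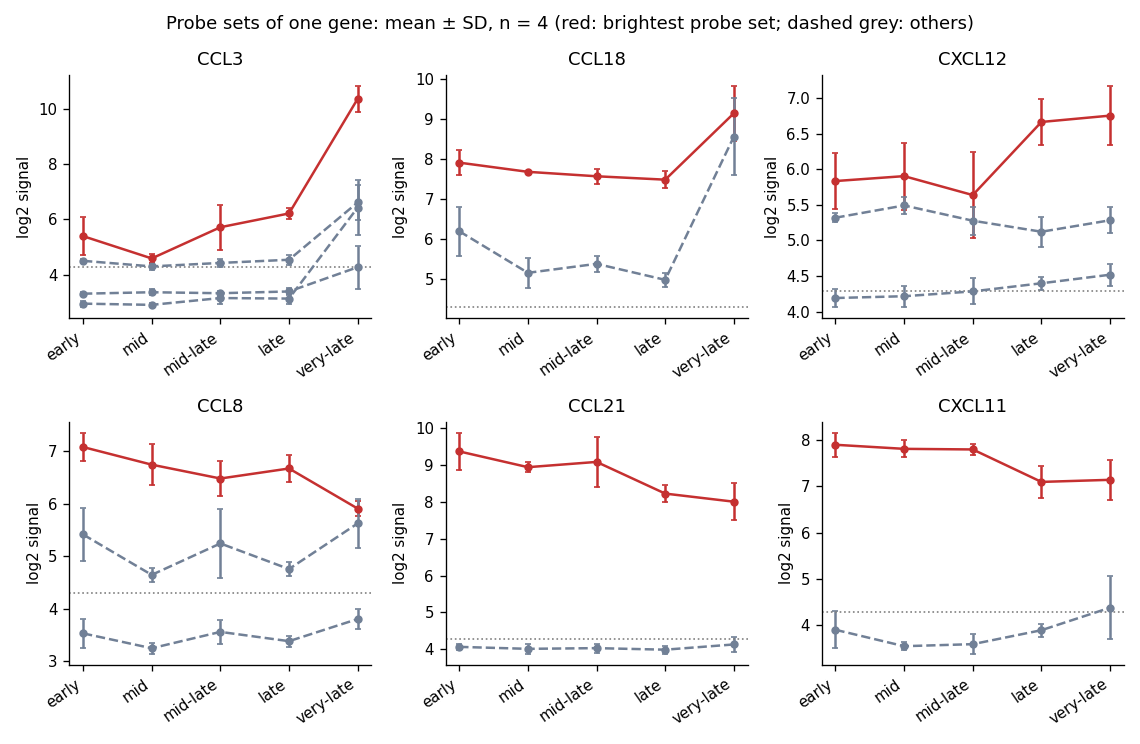
Stage means ± SD (log2 signal, n = 4) of each probe set of 6 chemokine genes; the brightest, which stands for the gene, is in solid red, the others are dashed grey, and the dotted line is the background of 4.29. All probe sets of CCL3 and CCL18 were highest at very-late, and the probe sets of CCL8 and CXCL11 differed in the sign of their change from early to very-late.

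The 22 genes near background at all stages were 15 ligands and 7 receptors. The ligands were CCL1, CCL13, CCL14, CCL16, CCL19, CCL20, CCL23, CCL24, CCL26, CCL27, CCL28, CXCL8, CXCL13, CXCL17 and XCL1. The receptors were CCR2, CCR3, CCR4, CCR8, CXCR6, CX3CR1 and XCR1. Their stage means lay between 2.97 and 4.02, and only CCL19 and CCR2 had an array above 4.29, both at very-late replicate 2. A probe set at background does not show that its transcript is absent. The calls among them were small: CXCL13, which attracts B cells, rose by 0.23 from early to late (adjusted p = 0.033), and CCL14 rose by 0.33 from late to very-late (adjusted p = 0.0186). Both were lost without single arrays, among them late replicate 2 for CXCL13 (adjusted p = 0.0921) and very-late replicate 3 for CCL14 (adjusted p = 0.0615). The mean of the 4 probe sets of CXCL13 differed by 0.08 from early to late and did not pass (adjusted p = 0.179).

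Set out by ligand and receptor, several pairs had only 1 side above background. CCL2 and CCL8 were measured above it and CCR2 was not, CX3CL1 was and CX3CR1 was not, CXCL16 was and CXCR6 was not, and CCL17 was and CCR4 was not. Conversely CCR10 was above background and its ligands CCL27 and CCL28 were not, and CCR6 was at the limit with its ligand CCL20 near background. Both sides were above it for CCR1 with CCL3 and CCL5, CXCR4 with CXCL12, CXCR3 with CXCL9, CXCL10 and CXCL11, and CCR7 with CCL21. For CCR1, CXCR4 and CXCR3 the receptor rose from early to very-late. CCL3 and CCL5 rose as well in the first case and CXCL12 in the second. No ligand of CXCR3 passed as higher: CXCL10 and CXCL9 differed by 1.53 and 1.39 without passing, and CXCL11 fell on its brightest probe set. The calls of CCL5, CXCL12, CXCR4, CXCR3 and CXCL11 have the limits given above. XCL1 and its receptor XCR1, and CCL1 with CCR8, were near background on both sides.

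Many chemokine genes lie in clusters. In the RefSeq gene order of the macaque assembly T2T-MMU8v2.0, 31 of the 45 genes fell into 9 groups with at most 14 protein-coding genes between neighbours. The largest held CCL5, CCL16, CCL14, CCL23, CCL18 and CCL3, of which 3 rose from early to very-late (CCL5, CCL18 and CCL3) and 3 were near background. In the group of CCL2, CCL11, CCL8, CCL13 and CCL1, 1 rose (CCL2), 1 fell (CCL8) and 2 were near background. The receptor group of CXCR6, XCR1, CCR1, CCR3 and CCR2 had 2 that rose, CCR1 and CCR2, and 4 near background. In the group of CXCL9, CXCL10, CXCL11 and CXCL13, only CXCL11 passed against early, and it fell. Over all probe sets, 9.45% rose and 9.21% fell in that comparison, and the groups were not tested as sets. The calls of CCL5, CCR2, CCL8 and CXCL11 have the limits given above.

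Receptors that take up or present chemokines without signalling to migration were measured for 4 of 5 genes. CCRL2, which presents the chemoattractant chemerin, had stage means of 3.75, 3.86, 3.80 and 4.02 and then 6.40 at very-late, a rise of 2.65 ± 0.21 SE from early (adjusted p = 7.7e-08). ACKR1, the Duffy receptor by which venular endothelium binds inflammatory chemokines, had its maximum earlier, with means of 6.38, 7.10, 8.14, 8.42 and 6.54. It rose by 1.76 ± 0.38 SE from early to mid-late (adjusted p = 0.0145) and by 2.04 ± 0.38 SE to late (adjusted p = 0.00276), and fell by 1.88 ± 0.38 SE from late to very-late (adjusted p = 0.00207). ACKR3 and ACKR4 did not pass. Of 7 measured genes for other chemoattractants and their receptors, 2 rose from early to very-late (background 9.45%), among them C5AR1, the complement C5a receptor, by 2.61 ± 0.34 SE (adjusted p = 2.21e-05). PPBP, a platelet chemokine, differed over the stages (adjusted p = 0.0124), with its highest mean at mid (4.88) and 3.08 to 3.57 elsewhere. RARRES2, which encodes chemerin, rose by 0.81 ± 0.24 SE from late to very-late (adjusted p = 0.0266).

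Signalling below chemokine receptors and its desensitisation were covered by 17 of 19 genes of 1 list. From early to very-late 10 rose (background 9.45%) and 1 fell (9.21%), with a median change of 0.47 against 0.016 over all probe sets. For this list and those below, the background shares include probe sets near background. Among those above background at 1 or more stages, 36.2% were called in this comparison in either direction. RAC2, the leukocyte Rac GTPase, rose by 4.08 ± 0.25 SE (adjusted p = 3.95e-09), and DOCK2, which activates it, by 2.91 ± 0.21 SE (adjusted p = 2.61e-08). PIK3CG, the lipid kinase that acts below these receptors, rose by 1.65 ± 0.26 SE (adjusted p = 1.2e-04). The 1 that fell was RGS2, a brake on G proteins, by 2.84 ± 0.41 SE (adjusted p = 5.19e-05). Other desensitising genes in the list had higher means at very-late than at early. These were RGS1 (4.64 against 3.28, the latter below background), RGS10 (6.94 against 6.02), ARRB1 (7.25 against 6.02) and ARRB2 (8.42 against 7.49). GRK2 (6.11 against 6.03) and GRK6 (6.90 against 6.79) differed little. The list thus does not show desensitising genes falling as a group.

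A list of cytokines, sensors and transcription factors upstream of chemokine transcription, which also holds the NF-kB inhibitors NFKBIA and TNFAIP3, was measured for 16 of 21 genes. From early to very-late 8 rose and none fell (background 9.45% and 9.21%), with a median change of 0.40 against 0.016 over all probe sets. NFKBIA and TNFAIP3 did not pass. TLR4 and TLR2, sensors of bacterial products and tissue damage, rose by 3.28 ± 0.28 SE (adjusted p = 1.32e-07) and by 2.35 ± 0.23 SE (adjusted p = 6.35e-07). The interferon regulatory factors IRF8 and IRF1 rose by 2.69 ± 0.32 SE (adjusted p = 7.41e-06) and by 1.08 ± 0.35 SE (adjusted p = 0.04). Of the cytokines in this list, IL1B rose by 0.77 ± 0.19 SE (adjusted p = 0.00777), and TNF, IL1A, IL6 and IFNG had stage means of 3.17 to 3.65, near background. IL1B itself was below background up to and including late (means of 3.90 to 4.09) and averaged 4.80 at very-late.

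Adhesion genes were measured for 13 of 20, and 5 rose and 2 fell from early to very-late (background 9.45% and 9.21%), with a median change of 0.09 against 0.016 over all probe sets. ITGB2, the common chain of leukocyte integrins, rose by 3.93 ± 0.27 SE (adjusted p = 1.36e-08), ICAM1 by 0.58 ± 0.14 SE (adjusted p = 0.00495) and ICAM2 by 0.60 ± 0.17 SE (adjusted p = 0.0154). ICAM1 was near the floor, with means of 3.51 to 3.80 up to and including late and 4.39 at very-late. VCAM1, an endothelial adhesion molecule, fell by 1.06 ± 0.29 SE (adjusted p = 0.0126). Among 10 of 12 peptidases that can cleave chemokines, 5 rose and none fell (background 9.45% and 9.21%), with a median change of 0.64 against 0.016. MMP9 rose by 4.29 ± 0.43 SE (adjusted p = 1.1e-06), and the cathepsins CTSK, CTSS and CTSL by 4.52, 4.25 and 2.17. MMP9, CTSK and CTSS had already risen by the late stage, by 2.35, 1.91 and 1.78. CCL2, CCL3 and CCR1 did not pass at that stage, and the difference between these genes and the peptidases was not tested.

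Macrophage markers rose by the very-late stage, as CCL2, CCL3 and CCR1 did, and 3 of them had risen from early to late (background 3.61%). Of 12 listed monocyte and macrophage markers 10 were measured (CD68, CD14, CSF1R, CYBB, AIF1, MSR1, MRC1, LYZ, CD86 and TYROBP). Of these, 9 rose from early to very-late (background 9.45%) and 7 from late (background 6.75%). Their mean over the list was 6.72 to 6.98 on the early arrays, 5.94 to 6.33 at mid, 5.87 to 7.46 at mid-late, 7.19 to 7.92 at late and 9.15 to 10.20 at very-late. At the first 4 stages 1 of the 10 was below background, and at very-late none. Like the means of CCL2, CCL3 and CCR1, this mean was lowest at mid and highest at very-late. For CCR1 the mid mean (4.03) was below background, as were those at early (4.13) and mid-late (4.07). CCL2 averaged 4.69 at mid and 4.82 at late, and no chemokine gene passed from early to mid. The low at mid is thus not established for these genes. All mid arrays were in the group low in mitochondrial signal, so the low at mid cannot be told apart from that group. The part of macrophages in the rise of the chemokine genes was not tested.

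Lists for other leukocytes gave mixed results. Over all probe sets, 9.45% rose and 9.21% fell from early to very-late, and 6.75% and 7.03% from late. In lists this short, a count of 1 is no result about the list. For natural killer cells, 5 of 7 markers were measured, and the list mean was 7.42 to 8.18 on the early arrays and 7.16 to 8.00 on the very-late ones, none below background at these stages. From early to very-late NKG7 and NCAM1 rose and GZMB, the protease granzyme B, fell by 1.89 ± 0.37 SE (adjusted p = 0.00108). None of 4 measured mast cell markers and none of 4 platelet markers passed from early or late to very-late. For T cells, 5 of 11 markers were measured. CD4, CD8A and CD8B rose from early to very-late, and CD5 and CD28 did not. Below background were 2 of the 5 at early and 1 at very-late. The T cell list mean was 4.31 to 4.42 at early and 4.79 to 4.95 at very-late. For neutrophils, 5 of 6 were measured and all 5 were below background at the first 3 stages; at very-late the list mean was 3.93 to 4.69, 2 of the 5 were below background and 1 had risen. Dendritic cell markers, of which 3 of 5 rose, had 3 of 5 below background at very-late, and B cell markers 2 of 4. The 4 measured luteal steroidogenic markers all fell from early to very-late, to list means of 6.38 to 8.40. Endothelial markers (8 of 8 measured) had 1 that rose from early to very-late and 2 that fell from late to very-late. The part of these in the chemokine results was not tested either.

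**Figure D5:**
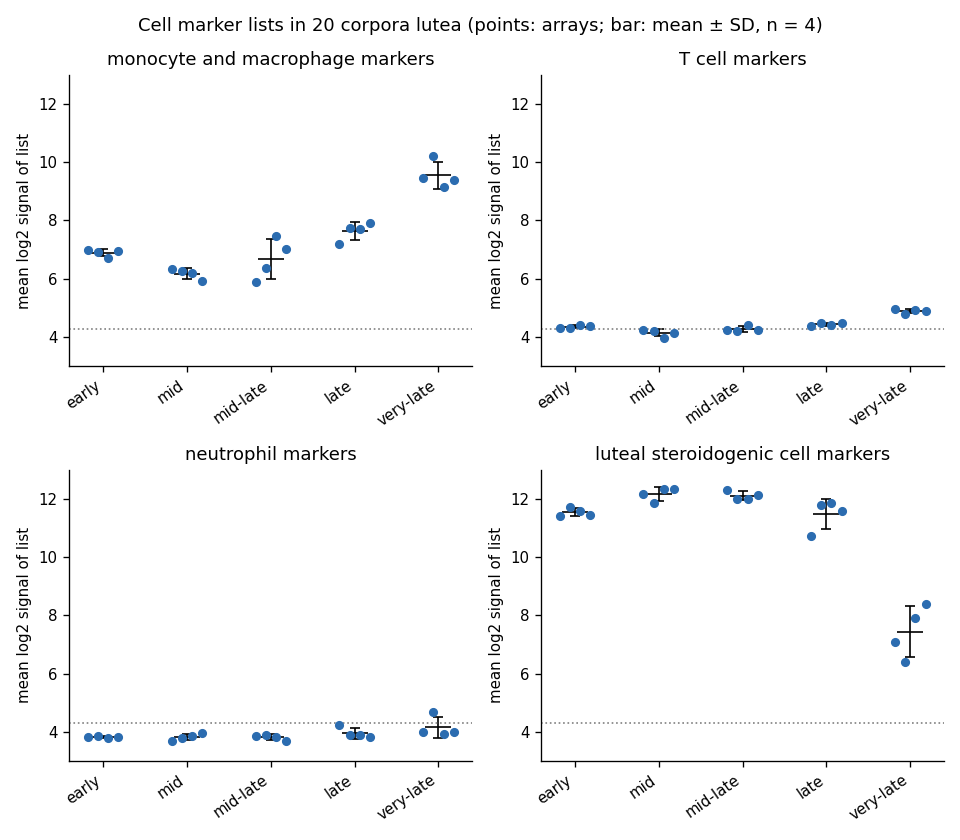
Mean log2 signal of 4 cell marker lists on each of the 20 arrays by stage (points), with the stage mean ± SD (n = 4) and the background of 4.29 as a dotted line. The macrophage list ran from 5.87 to 7.92 at the first 4 stages and from 9.15 to 10.20 at very-late, the T cell and neutrophil lists stayed below 5 on every array, and the luteal list dropped to 6.38 to 8.40 at very-late.

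The main increases were also present among the arrays with high mitochondrial signal alone, 3 early, 4 late and 3 very-late. There CCL2 differed by 4.00 from early and 4.47 from late, CCL3 by 4.93 and 3.99, CCL4L1 by 1.87 and 2.01, CCR1 by 2.38 and 1.91, and CCL18 by 1.05 and 1.46. CCL8 and CCL21 differed from early by -1.18 and -1.36, and CXCL12 and CXCR4 by 0.95 and 1.27. In the low group early, mid-late and very-late had 1 array each and late had none, so no comparison of means was made there.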

How the data were processed

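RNA was prepared with Trizol and RNeasy columns and amplified in 1 cycle, per the labels' protocols. The authors deposited log2 signals per probe set, made with RMA per the submitters' processing notes; its version is not given in the sources used here. The table held 52865 probe sets, and the 158 controls of the array were not fitted. Symbols came from the platform annotation: 24956 probe sets had 1 symbol, 361 several and 27390 none. Array medians were 3.88 to 3.98.

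The 20 arrays were fitted together in limma 3.58.1 (R 4.3.3), with a mean per stage, eBayes, an F-test over the 5 stages and 7 stage contrasts. The fit was tested on simulated data. The replicate numbers did not pair the arrays (28 same-numbered pairs, r from -0.21 to 0.21). Every array is printed for genes past the test by at least 2-fold, and the rest by ranges. From each further list, up to 4 genes past the test over the stages with the largest range of stage means are named, plus genes set beside a chemokine result. The 45 genes and all lists were chosen with earlier results of these data known. CCL5, CXCL6, CXCL9, CXCL10, CXCL11, CXCR3, CCL17 and CCR2 were given in more detail after their values were seen. Alternatives covered scaling, dim probe sets, array weights, the prior, probe sets of one gene, the threshold, the samples fitted, the replicate block and each array left out, and, added after seeing the data, very-late replicates 1 and 2 left out and a term for the mitochondrial split.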

Additional observations from a re-analysis of the deposited data

Results flagged for a closer look

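Within the 115 groups of 4 arrays (23 genes above background at 5 stages), 7 had an array whose gap to the nearest other was above Dixon's 95% critical value, as a share of the range of its group. Chance gives about 1 in 20 for independent groups. These groups share the same arrays, so the count does not settle whether there is a pattern. CCR1 on very-late replicate 2 read 9.18, where the next array of its stage read 6.54. CCL2 on mid replicate 1 read 5.55, with 4.50 next. CXCL10 on early replicate 3 read 6.28 and on mid-late replicate 3 read 5.10, with 3.98 and 3.81 next. The other gaps were small in size: CCL18 on mid replicate 1 (7.69, next 7.67), CXCR3 on mid replicate 2 (5.50, next 5.43) and CXCL16 on early replicate 2 (4.42, next 4.52).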

How the results depend on the processing

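Requiring at least 2-fold left 8 of 15 calls over the stages, 1 of 4 from early to late, 8 of 16 from early to very-late and 5 of 8 from late to very-late. Averaging the probe sets of each gene gave 2 calls from early to late, and turned the fall of CCL8 from late to very-late into a difference of 0.18 (adjusted p = 0.449), since its probe sets disagree. From early to mid-late, CXCL6 alone passed, giving 1 in place of 0, with dim probe sets left out, with array weights, or without very-late replicates 1 and 2. From mid-late to late, array weights gave 2 (CCL17 and CXCL11). Leaving out each array in turn gave 12 to 18 calls over the stages, 1 to 5 from early to late, 11 to 17 from early to very-late, 7 to 10 from late to very-late, 0 to 1 from mid-late to late (CCL17, without late replicate 1), and 0 elsewhere. With the replicate number as a block, the counts were 15 over the stages, 3 from early to late, 16 from early to very-late, 8 from late to very-late and 0 in the other comparisons. Of the 28 same-numbered pairs, 5 correlated above 0.1. The cause of the other changes was not tested. Over 43 calls of single chemokine genes and 934 alternatives, 826 kept direction and call, 107 kept only the direction and 1 reversed; 22 of the 43 kept both in every one, among them all calls of CCL2, CCL3, CCL4L1, CCL18 and CCR1. Signal over background limits the 22 genes near background.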
